A study of Homo sapiens with 3 samples.

Results

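Gene expression was compared between HCT-116 cells treated with the SCD1 inhibitor T-3764518 and cells treated with DMSO, its vehicle. HCT-116 is a human colorectal cancer cell line, and the cells of both samples carry intact SCD1 (SCD1-WT). These are 2 of the 3 arrays of the series, and by the study's methods the treatment was 100 nM for 24 h, since the labels name only an SCD1 inhibitor. The other array is labelled SCD1-KO and is called the knockout after its label; by the study's methods it is of HCT-116 cells of a CRISPR-Cas9 clone that lost a piece of the SCD1 genomic region and that the study describes as treated with DMSO. The mRNA of the targeted gene, SCD, was not lower on that array: it read 2907 with DMSO and 5506 in the knockout, 2.23-fold higher, with all 4 probe sets at or above DMSO. Whether these probe sets lie in the deleted piece was not tested, so they do not check the label. The SCD1-KO ratio to the same DMSO array is set beside the T-3764518 ratio, and because both ratios share that array their likeness was not measured. Of 19775 genes named by probe sets of a single gene, 12321 were bright enough to be compared, with 23192 probe sets. Each condition had 1 array, so differences between arrays are given without replicates and without p-values. The question the comparison addresses is which mRNAs differ after a day with the inhibitor.

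SCD1 is the enzyme of the endoplasmic reticulum that puts a double bond into saturated fatty acyl-CoA and so makes oleate and palmitoleate. Cells watch the saturation of their membranes: sterols and unsaturated fatty acids restrain the SREBP factors that switch on genes of lipid synthesis, and saturated chains in the membrane of the endoplasmic reticulum can trigger the unfolded protein response. That response raises chaperones through XBP1 and ATF6, and stress genes such as ATF3, DDIT3 and TRIB3 through the kinase PERK and the factor ATF4. Progression into S phase runs through the E2F factors, which switch on the genes of DNA replication.

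A signal here is the MAS5 value of a probe set, in arbitrary units on a linear scale, and a gene's signal is the geometric mean of its probe sets. The ratio of a gene is the median log2 ratio of its probe sets, and a gene is called higher or lower at 2-fold or more, which is 1 unit of log2 away from 0. Where a signal lay under 56.6, the level below which probe sets were left out, it was raised to 56.6 and the fold is given as "at least". Over all probe sets the median signal was 68.8 for DMSO, 56.7 for T-3764518 and 62.4 for the knockout, and 46.0%, 49.9% and 48.2% of probe sets lay under 56.6. For ACTB the 3′ signal divided by the 5′ signal was 1.30, 1.36 and 1.54 on the same arrays. Of 12 markers of colorectal epithelium, 9 were compared and 0 were called with T-3764518, with EPCAM, an epithelial adhesion protein, at 16859 with DMSO, 17224 with T-3764518 and 6840 in the knockout. The summed signal of the 12 was 57283, 60716 and 55074. In the knockout 1 of the 9 was higher and 3 were lower, beside 3.12% and 3.93% of all genes. Among the lower was CDH1, E-cadherin, at 835 with DMSO and 300 in the knockout. CEACAM5 and CDX1 lay under 56.6 on all 3 arrays and VIL1, a microvillus protein, was dim, at 38.9 and 12.5 over all its probe sets. Of the 7 markers of blood cells 5 have a probe set, and their summed signals were 239, 247 and 347 on these arrays, with PTPRC, the pan-leukocyte CD45, at 5.21, 4.46 and 4.38. LYZ, the lysozyme, is the 1 called marker of this list, and its compared probe set read 11 with DMSO, 45.1 with T-3764518 and 446 in the knockout. The former pair of values lies under 56.6, so no fold is given.

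With T-3764518, 269 genes were called higher and 407 lower, which is 2.18% and 3.3% of the 12321 compared and 5.49% together. The SCD1-KO ratio called 7.05% of genes. The median log2 ratio over all genes was -0.087, with a middle range of -0.36 to 0.17, and 49.1% of genes lay within 1.2-fold of DMSO. At 4-fold or more, 39 genes were higher and 15 lower. The higher and lower calls lay at different signals. In the dimmest quintile of genes, with mean signals from 56.6 to 159, 86 were higher and 251 lower, whereas in the brightest quintile, above 1532, 52 were higher and 15 lower. The SD of log2 ratios between probe sets of 1 gene was 0.60 in the dimmest quintile and 0.22 in the brightest, a spread that does not cover differences between cultures. Of the called genes with at least 2 probe sets, all probe sets lay on the same side of 0 for 91 of 93 higher and 95 of 101 lower genes. Of the higher genes 50 had a DMSO signal under 56.6, and of the lower genes 138 had a T-3764518 signal under it.

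**Figure D1:**
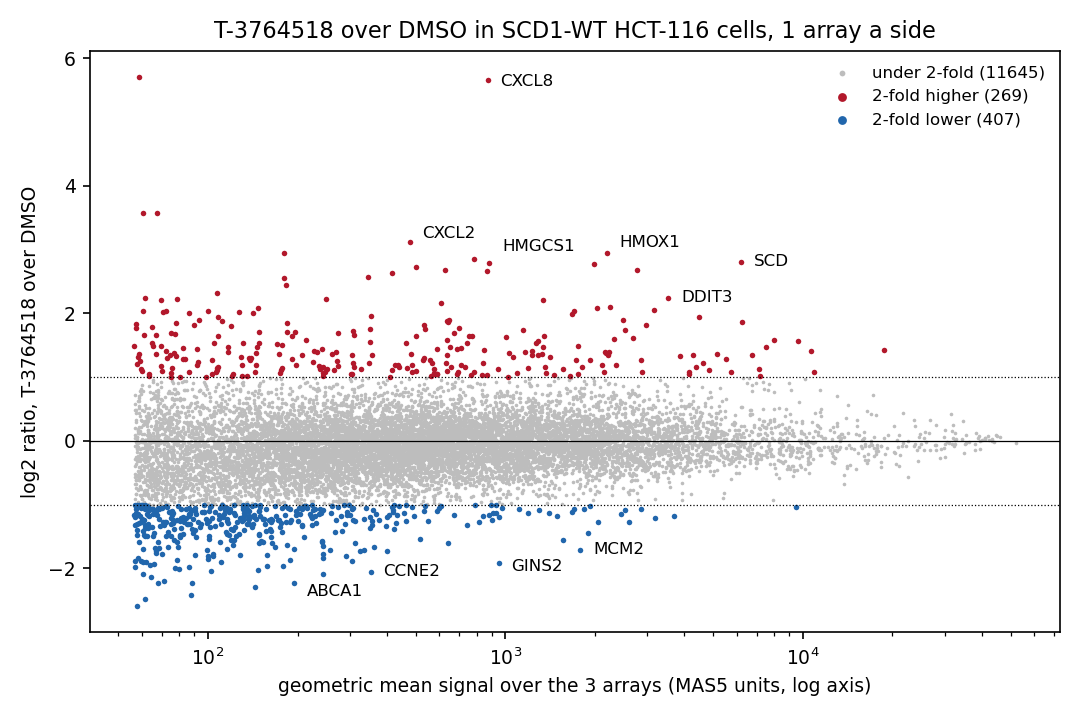
Log2 ratio of T-3764518 over DMSO (vertical axis) against the geometric mean signal over the 3 arrays (horizontal, log axis) for 12321 genes, 1 point a gene, with dotted lines at 2-fold. The 269 higher genes reach into the brightest signals, while 251 of the 407 lower genes lie in the dimmest quintile.

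The balance of higher and lower calls depended on how the arrays were scaled. Higher calls were 39.8% of all calls on the deposited signals, 58.1% after quantile normalization, 59.1% after a lowess correction and 77.2% after scaling the arrays to 1 median, which shifted the median of all genes by 0.28 on the log2 scale. The medians of gene lists are therefore read against the median of all genes. Counts of calls with T-3764518 in a list are to be read against 2.18% of all genes higher and 3.3% lower. Just inside the signal filter were SLC22A7, at 25.5, 71.8 and 99.1 (DMSO, T-3764518, SCD1-KO), and GK6P, at 101.7, 45.5 and 39.2. Just outside were LY9, with 24.6, 84.1 and 87.5, and NPAS1, with 48.7, 48.6 and 76.5.

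Among the 15 genes farthest above DMSO, with all probe sets on the same side of 0, were chemokines, stress genes and lipid genes, and 9 of them belong to a gene list described below. CXCL8, the neutrophil chemokine, read 52.6 with DMSO, 2670 with T-3764518 and 4744 in the knockout, and both of its probe sets were brighter with T-3764518, at 43.1-fold and 59.8-fold, or at least 34.4-fold with low signals raised. The other 6 lie outside the lists. SUN3, a protein of the nuclear envelope, read 70.5 with DMSO, 543 with T-3764518 and 153 in the knockout, a 7.70-fold difference with the compound. PTPDC1, a protein phosphatase, went from 159 to 944, and its 2 probe sets gave almost the same log2 ratio, 2.55 and 2.58. In SCD1-KO cells PTPDC1 read 277. SPX, which encodes the peptide spexin, read 78.9, 463 and 160 on the 3 arrays. LURAP1L was 6.93-fold higher with T-3764518, UPP1, which splits uridine, 6.36-fold and LIPG, the endothelial lipase, 6.43-fold. Of the 15 genes, 14 were also at 2-fold or more in SCD1-KO cells, where 3.12% of all genes were, and for 4 of them the SCD1-KO ratio was the larger. The 15 were picked by their ratio to the DMSO array that the SCD1-KO ratio shares. A low DMSO reading would raise both ratios, so this count does not measure likeness. Among genes with at least 2 probe sets came 2 more outside the lists. IL21R, a cytokine receptor, read 77.6 with DMSO and 423 with T-3764518, with probe sets at 2.44 and 2.46 on the log2 scale. TSC22D3, the glucocorticoid-induced leucine zipper protein, read 581 and 2694.

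Of the 15 genes farthest below DMSO, 13 rest on a single probe set and 5 belong to a list. SEMA5B, a semaphorin, read 249 with DMSO and 53 with T-3764518. DECR2, a peroxisomal reductase that works on unsaturated fatty acyl-CoA, read 380 with DMSO, 89.8 with T-3764518 and 425 in the knockout, so it was 4.23-fold lower with the compound and near DMSO in the knockout. ABCA1, which exports cholesterol, stood the same way, at 312, 66.5 and 359. The cell cycle genes in this set were CCNE2, GINS2 and MYBL2. MYBL2, a transcription factor of proliferating cells, read 513, 140 and 397 and was 3.68-fold lower with T-3764518. MFSD2A, a transporter of lysophosphatidylcholine, read 201, 58.0 and 182, and S1PR5, a sphingosine 1-phosphate receptor, 348, 101 and 113. MAPK3, the kinase ERK1, was 3.30-fold lower, from 547 to 166, and LIN7A, a scaffold of cell junctions, 3.65-fold lower, from 606 to 166. The kinase MAST3 was 4.09-fold lower, NRGN, neurogranin, 3.91-fold, ACCS 3.43-fold, the ubiquitin ligase NEURL1B 3.29-fold and IGSF9 at least 3.27-fold. In SCD1-KO cells 4 of the 15 were also 2-fold lower, where 3.93% of all genes were, and 2 were above DMSO, in a ratio that shares the DMSO array. Genes with at least 2 probe sets added BRIP1, a helicase of DNA repair, at 407 with DMSO, 136 with T-3764518 and 254 in the knockout, and PAQR8, a membrane progesterone receptor, whose probe sets gave -2.25 and -1.17. SLC29A4 and ATP2A3 were also in that set, 2.76-fold and 2.67-fold lower. SNN, SEMA6B and LRRC43 each had a probe set under 56.6 with T-3764518, and with low signals raised they were at least 2.96-fold, 2.79-fold and 2.57-fold lower. For LRRC43 the probe sets differed, from 253 to 23.9 and from 122 to 82.3.

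**Figure D2:**
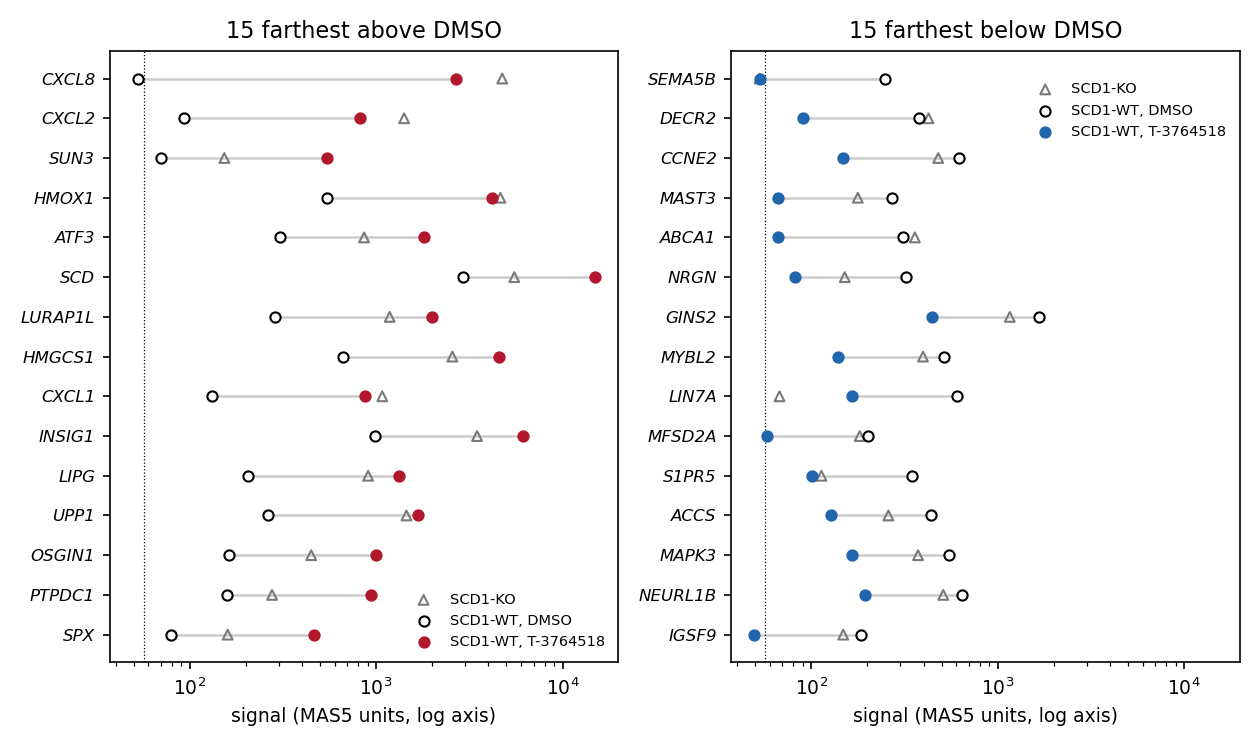
Signal on each array (horizontal, log axis) of the 15 genes farthest above DMSO (left) and the 15 farthest below (right), with open circles for DMSO, filled circles for T-3764518, triangles for SCD1-KO and a dotted line at 56.6. All 30 genes were picked for a T-3764518 signal beyond the DMSO signal. The median SCD1-KO ratio over probe sets, which shares that DMSO array, is 2-fold or more for 14 of the 15 genes on the left.

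SCD itself, which encodes SCD1, was among the genes farthest above DMSO, but its 4 probe sets did not give the same ratio. The probe sets read 984 and 8438, 834 and 6908, 3654 and 21595, and 23841 and 39350 with DMSO and T-3764518, which is 8.58-fold, 8.29-fold, 5.91-fold and 1.65-fold. The brightest probe set thus gave the smallest ratio. SCD5, the other human stearoyl-CoA desaturase, was at a log2 ratio of -0.58, with signals of 292 and 229. Among the 12 compared genes of desaturation and elongation, 2 were higher, 1 was lower and the median was 0.15. HSD17B12, the ketoacyl-CoA reductase of elongation, had a bright probe set that went from 6455 to 12650 (1.96-fold) and a dim one from 24.6 to 124. The elongase ELOVL3 read 241 with DMSO, 99.6 with T-3764518 and 180 in the knockout. ELOVL6, the elongase of palmitate, read 951 and 1374, and FADS2, the delta-6 desaturase, 138 and 148.

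Cholesterol synthesis had the highest median of the 47 gene lists, 1.19, and 11 of its 17 compared genes were higher and 0 lower. In SCD1-KO cells 6 were higher, 3.12% of all genes being higher there, and the median was 0.78. HMGCS1, which makes HMG-CoA, read 666 with DMSO, 4579 with T-3764518 and 2564 in the knockout. ACAT2, the acetyl-CoA thiolase before it, read 1219, 3709 and 2777, and DHCR7, the last step, 969, 4169 and 2807. For IDI1, the isopentenyl diphosphate isomerase, probe sets disagreed: a pair went from 2816 to 11921 and from 2764 to 11826, and the third from 325 to 186. PMVK and TM7SF2 lay at -0.18 and -0.12, below 0. Of 12 genes of SREBP regulation and sterol uptake, INSIG1, STARD4 and NPC1 were higher and the median was -0.0056. The genes of the SREBP factors themselves were near DMSO, SREBF1 at 0.02 and SREBF2 at 0.20. All 3 probe sets of INSIG1, a sterol-sensing anchor of SREBP, were at least 5.47-fold brighter with T-3764518.

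Promoters were taken from RefSeq (GRCh38.p14), from 250 bases before to 50 bases after the annotated start, and 10030 of the compared genes had one. They were searched on both strands for short motifs, of which the CCAAT box, the site of NF-Y that stands beside SREBP in sterol genes, is the letters CCAAT. It was in 36.7% of all promoters, in 44.2% of those of higher genes and 41.0% of those of lower genes. In the cholesterol list 12 of 15 promoters held it, but so did 39 of 50 in the list of G2 and mitosis, where 0 genes were called. The SRE letters TCACNCCAC, one form of the SREBP site, were in 1.07% of all promoters and in 0 of these 15, which says only that these letters are not in these windows. The 250 bases before the starts of SCD and HMGCS1 are shown because these genes carry the largest lipid differences, with CCAAT boxes (read as ATTGG on the other strand) in capitals, at chr10:100346983-100347232 on the plus strand and chr5:43313413-43313662 on the minus strand.
SCD: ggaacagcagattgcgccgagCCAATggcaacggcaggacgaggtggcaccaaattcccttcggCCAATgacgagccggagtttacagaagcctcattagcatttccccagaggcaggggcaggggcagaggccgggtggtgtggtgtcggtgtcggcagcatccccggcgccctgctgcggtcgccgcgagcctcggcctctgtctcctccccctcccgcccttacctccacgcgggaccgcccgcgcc
HMGCS1: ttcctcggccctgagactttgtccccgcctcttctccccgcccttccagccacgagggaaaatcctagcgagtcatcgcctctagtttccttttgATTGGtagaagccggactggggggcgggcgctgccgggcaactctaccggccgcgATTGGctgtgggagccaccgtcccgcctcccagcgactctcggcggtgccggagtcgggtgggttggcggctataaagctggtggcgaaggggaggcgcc

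The other lipid lists differed in the direction of their calls. Of 10 compared genes of fatty acid synthesis 3 were higher (30%) and 0 lower, beside 2.18% and 3.3% of all genes. The median was 0.38, or -0.031 without probe sets ending in _s_at or _x_at. ACSS2 read 691 with DMSO, 2732 with T-3764518 and 2515 in the knockout. ME1 read 3162, 8148 and 5280, and FASN, the fatty acid synthase, 941, 2056 and 1982. Among 23 genes for triglycerides and lipid droplets, 3 were called higher and 2 lower, and the median was -0.087, equal to that of all genes to 2 digits. GPAT3, which starts glycerolipid synthesis, read 1203 with DMSO, 2908 with T-3764518 and 2034 in the knockout, while DGAT2, which finishes triglycerides, read 226, 91.9 and 181. The others called were LPIN1, 2.89-fold higher, MGLL, 2.08-fold higher, and LIPE, at least 1.85-fold lower. Of 30 sphingolipid genes 1 was higher (3.33%) and 2 lower (6.67%), beside 2.18% and 3.3% of all genes. SGMS1, a sphingomyelin synthase, read 833, 2199 and 864, a 2.64-fold difference with the compound, and CERS4, a ceramide synthase, read 212, 83.2 and 157. The median of this list was -0.19, and 0.087 after scaling to 1 median. Of 30 genes of phospholipid synthesis and remodelling LPCAT1 alone was called, as lower, which is 3.33% beside 3.3% of all genes. This enzyme, which puts saturated chains into lysophosphatidylcholine, read 3117 with DMSO, 1152 with T-3764518 and 1917 in the knockout, 2.71-fold lower with the compound.

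Stress genes of the endoplasmic reticulum were above DMSO across their list. Of 31 chaperones, folding enzymes and genes of ER-associated degradation, 30 had a ratio above 0, 6 were higher and 0 lower, and the median was 0.68. Every one of the 31 had a larger ratio with T-3764518 than in SCD1-KO cells. There 1 of the 31 was higher, where 3.12% of all genes were, and the median was 0.20. DNAJB9, a co-chaperone of HSPA5, read 1241 with DMSO, 4540 with T-3764518 and 2700 in the knockout, and its 3 probe sets gave log2 ratios of 1.77 to 1.94. HYOU1, a large chaperone of the ER lumen, read 2848, 7183 and 2805, and HSPA5, the chaperone BiP, 5128, 11195 and 6243. In both genes the SCD1-KO signal lay close to DMSO. HERPUD1, a membrane component of ER-associated degradation, went from 6710 to 17757, and SEC61B, a subunit of the translocon, from 774 to 1718. The bright probe set of SEC61B went from 8680 to 13985 (1.61-fold) and the dim one from 69.0 to 211 (3.06-fold). The 13 lumen chaperones had a median of 0.81, the 9 genes of degradation 0.68 and the 6 disulfide isomerases and oxidases 0.32, with 5 of these last 6 below DMSO in SCD1-KO cells. Scaling to 1 median gave 14 higher genes in place of 6, the brightest probe set of each gene gave 4, and the excess of the list's median over that of all genes ranged from 0.65 to 0.77 over the alternatives, beside 0.77 on the deposited signals.

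Of 18 compared genes in the list of ATF4 and CHOP regulators 9 were higher and 0 lower, with a median of 1.03. What raised them was not tested. ATF3, a stress-induced repressor, read 305 with DMSO, 1815 with T-3764518 and 862 in the knockout. DDIT3, which encodes CHOP, read 1813, 8567 and 2840, and TRIB3, a pseudokinase, 1522, 6354 and 3287. For all 3 the T-3764518 signal was the highest of the arrays. XBP1, the factor spliced by IRE1, read 1821, 4410 and 2878, and PPP1R15A, the GADD34 subunit that restores translation, 281, 948 and 585. The sensors were not called, with EIF2AK3, which encodes PERK, at a log2 ratio of 0.99, ATF6 at 0.40 and ERN1, which encodes IRE1, at 0.05. ATF4, which is controlled mainly at translation, was at 0.43. In SCD1-KO cells 6 of the 18 were higher, where 3.12% of all genes were, and the median was 0.56. Among genes of amino acid supply, 2 of 17 cytosolic tRNA synthetases, WARS1 and AARS1, were higher, 14 of the 17 were above 0 and the median was 0.37, while 0 of the 15 mitochondrial synthetases were called, with a median of -0.12. Of 13 genes of serine, one-carbon and asparagine synthesis 2 were higher, 4 lay below 0 and the median was 0.30. Of 19 amino acid transporters 2 were higher, 5 lay below 0 and the median was 0.31. From the former list GOT1, the cytosolic aspartate aminotransferase, read 2626 with DMSO and 6720 with T-3764518. From the latter SLC3A2, the heavy chain of amino acid exchangers, read 2685 and 5572.

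The CARE letters TGATGNAA, the composite site of CHOP or C/EBP with ATF4, were in 1.83% of all promoters, in 13 of the 215 promoters of higher genes (6.05%) and in 4 of the 288 of lower genes (1.39%). Within the stress lists 2 of 17 promoters of regulators, 4 of 16 of amino acid transporters and 5 of 14 of cytosolic tRNA synthetases held them, beside 1 of 13 of mitochondrial synthetases and 1 of 28 of the chaperone list, HERPUD1. CCAAT, part of the ER stress element, was in 24 of the 28 promoters of the chaperone list, beside 36.7% of all promoters and 39 of 50 in the list of G2 and mitosis. The stretches before ATF3 (chr1:212565157-212565406, plus strand) and HERPUD1 (chr16:56931892-56932141, plus strand) are shown as genes of the stress lists with a CARE match. The match is in capitals and begins 191 and 176 bases before the start. HERPUD1 holds it on the other strand. A single annotated start was used for each gene, so any other starts of ATF3 or HERPUD1 were not searched.
ATF3: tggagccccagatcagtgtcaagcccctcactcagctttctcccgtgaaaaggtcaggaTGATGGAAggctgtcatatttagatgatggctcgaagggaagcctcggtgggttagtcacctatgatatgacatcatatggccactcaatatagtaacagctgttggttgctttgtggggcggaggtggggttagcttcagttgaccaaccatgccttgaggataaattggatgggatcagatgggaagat
HERPUD1: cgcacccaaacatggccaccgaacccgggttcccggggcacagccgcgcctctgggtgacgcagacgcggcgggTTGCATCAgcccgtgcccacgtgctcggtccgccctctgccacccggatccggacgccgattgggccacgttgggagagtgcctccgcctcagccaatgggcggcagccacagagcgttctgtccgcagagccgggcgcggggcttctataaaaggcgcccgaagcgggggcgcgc

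**Figure D3:**
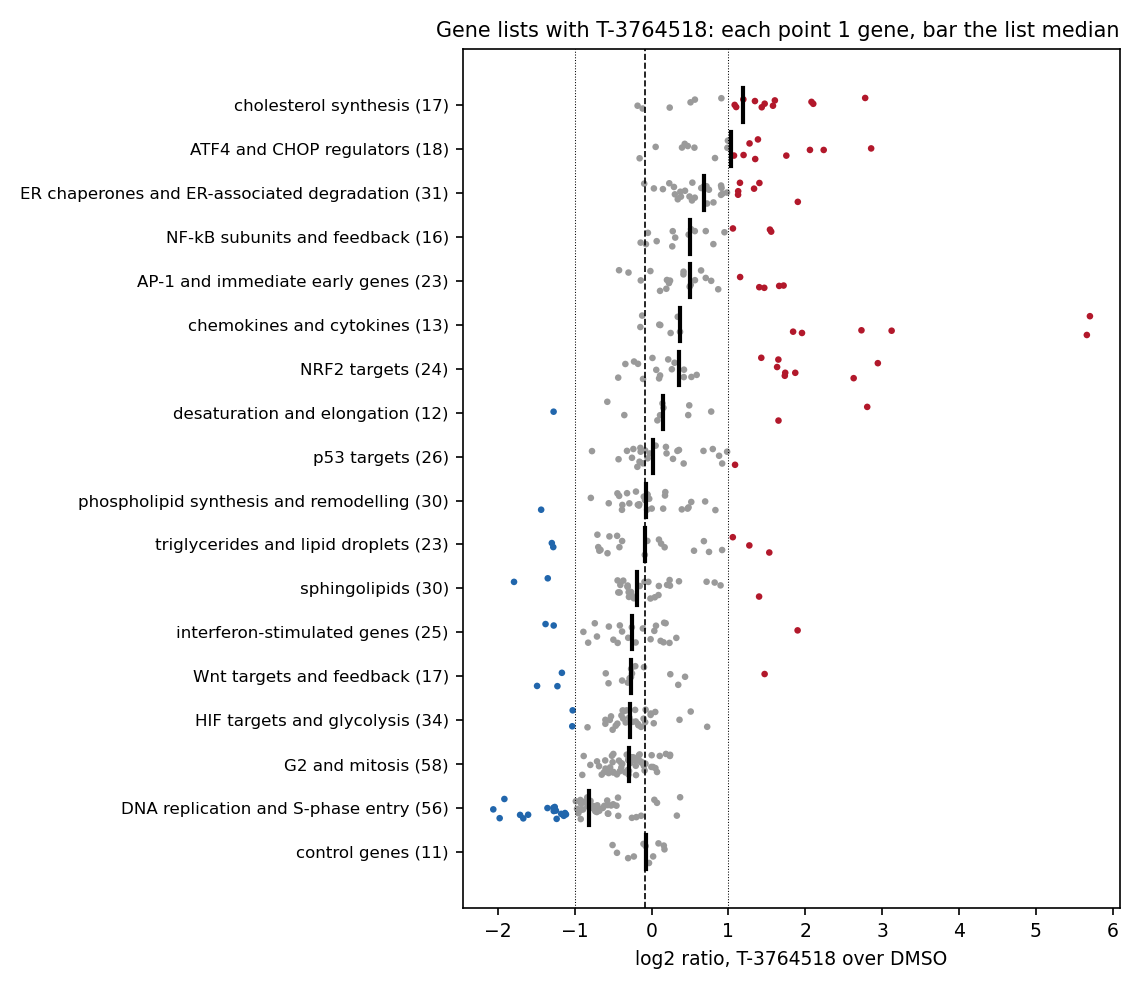
Log2 ratio of T-3764518 over DMSO (horizontal axis) for the genes of 18 lists, 1 point a gene, red at 2-fold higher and blue at 2-fold lower, with a black bar at each list's median, the number of compared genes in brackets and a dashed line at the median of all genes. Medians run from 1.19 for cholesterol synthesis to -0.81 for DNA replication, and the 11 control genes lie within 2-fold.

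Of 24 NRF2 targets, the genes of glutathione and thioredoxin defence, 8 were higher and 0 lower. The counts were the same in SCD1-KO cells, where 3.12% of all genes were higher and 3.93% lower. Within the list as drawn up here a gap separated the 8 from the rest. Each of the 8 was at 1.43 or more, and the highest of the other 16 was NFE2L2, the gene of NRF2 itself, at 0.59. The gap depends on the genes chosen: ME1 and SQSTM1, placed in other lists, lay inside it at 1.37 and 1.22. HMOX1, heme oxygenase 1, read 543 with DMSO, 4183 with T-3764518 and 4636 in the knockout, and SRXN1, sulfiredoxin, 3070, 11227 and 7037. OSGIN1, a growth inhibitor induced by oxidative stress, read 161, 1000 and 448. SLC7A11, the cystine transporter, was 3.34-fold higher with T-3764518, its 3 probe sets between 1.71 and 1.87 on the log2 scale. NQO1, a classic target, read 9770 and 11216 and was not called. The ARE letters TGACNNNGC were in 15.5% of all promoters, 19.5% of those of higher genes and 12.2% of those of lower genes, and in 3 of the 17 promoters of this list.

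Chemokines were among the genes farthest above DMSO, and for CXCL1, CXCL2, CXCL3 and CXCL8 the SCD1-KO signal was higher still. Of 13 compared chemokines and cytokines 6 were higher and 0 lower. CXCL1 read 132 with DMSO, 874 with T-3764518 and 1078 in the knockout, CXCL2 read 93.6, 816 and 1413, and CXCL3 read 114, 444 and 874. The 3 genes are close copies, and how far their probe sets read each other was not tested. CCL20, which attracts CCR6-bearing cells, was at least 2.30-fold higher from a DMSO signal of 2.50. It passed the filter only through its SCD1-KO signal, and it is counted among the 6. Without the signal filter 27 genes of this list were compared, 10 of them higher and 3 lower with T-3764518. TSLP, an epithelial cytokine, read 58.0, 208 and 39.4, so it was 3.59-fold higher with the compound and not above DMSO in SCD1-KO cells. The other 7 were between -0.15 and 0.37 on the log2 scale. Of 16 NF-kB subunits and feedback genes RELB, NFKBIB and NFKB2 were higher with T-3764518, against 8 in SCD1-KO cells, and the medians were 0.50 and 1.01. RELB, a subunit of the noncanonical pathway, read 171, 502 and 508. NFKBIA, which holds NF-kB in the cytoplasm, read 1635, 2667 and 4829 and was not called with T-3764518.

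The kB letters GGAATTTCC were in 42 of the 10030 promoters, 0.42%, and 4 of these belong to the 9 chemokine and cytokine genes with a promoter entry. Another 5 of 14 lay in the list of NF-kB subunits and feedback, in NFKB1, REL, NFKBIA, NFKBIZ and ICAM1, of which 0 were called. The match in CXCL1, CXCL2, CXCL3 and CXCL8 is shown with 10 bases on each side and the kB letters in capitals. It begins 78, 77, 78 and 91 bases before the start, at chr4:73869305-73869333 (plus strand), chr4:74099254-74099282 (minus), chr4:74038749-74038777 (minus) and chr4:73740468-73740496 (plus).
CXCL1: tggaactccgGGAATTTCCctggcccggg
CXCL2: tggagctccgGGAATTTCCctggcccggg
CXCL3: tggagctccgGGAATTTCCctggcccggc
CXCL8: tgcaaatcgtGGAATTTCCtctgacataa

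AP-1 and immediate early genes had a median of 0.50, with 5 of 23 higher and 0 lower. JUN, an AP-1 subunit, read 772 with DMSO, 2148 with T-3764518 and 1458 in the knockout, and all 4 of its probe sets were at 1.27 or more. FOS, its usual partner, read 2025 and 1838 and was not called. EGR3, an early growth response factor, read 160, 526 and 344, and MAFF, a small MAF protein, 1271, 3359 and 2387. CCN2, the connective tissue growth factor, read 121, 383 and 642, and CCN1 714 and 1588. In the neighbouring list of ERK feedback and EGF-family ligands 2 of 25 were higher. DUSP5, a nuclear phosphatase of ERK, read 5769, 17019 and 9077, and HBEGF, a ligand of the EGF receptor, 442, 1201 and 608. The AP-1 letters TGANTCA, which can overlap an ARE match, were in 4.48% of all promoters and in 21 of the 215 of higher genes (9.77%), but in 1 of 16 in this list.

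The genes of DNA replication and S-phase entry formed the list farthest below DMSO. Of 56 compared, 52 had a ratio below 0, 16 were lower and 0 higher, and the median was -0.81, the lowest of the 47 lists. For 47 of the 56 the T-3764518 signal was the lowest of the 3 arrays. In SCD1-KO cells 2 were lower, where 3.93% of all genes were, and the median was -0.33. In bulk RNA, fewer cells in S phase and less of these RNAs per cell cannot be told apart. The list's median lay 0.72 under that of all genes, and between 0.69 and 0.79 under it in the 10 alternatives. Scaling to 1 median left 7 lower genes in place of 16.

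The entry into S phase is driven by cyclin E and the E2F factors. Of the 5 genes grouped here, CCNE1, CCNE2, E2F1, E2F2 and the phosphatase gene CDC25A, 4 were lower. CCNE2, a cyclin E, read 617 with DMSO, 148 with T-3764518 and 479 in the knockout, and its probe sets gave -2.23 and -1.89. E2F2 read 599, 188 and 416, and E2F1 read 161, 41.0 and 96.4, at least 2.40-fold lower. In each of the 3 the SCD1-KO signal lay between the other arrays. CDC25A, the phosphatase that activates CDK2, read 126 and 50.9, with 129 in SCD1-KO cells. With low signals raised it was at least 1.67-fold lower, so its call rests on signals under 56.6. CCNE1, the other cyclin E, read 1132 with DMSO and 763 with T-3764518 and was not called. Members of this list beyond CCNE2, GINS2, MCM2, MCM4 and E2F2 were named after their values were seen.

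The replicative helicase, which unwinds DNA at the fork, is built of the ring MCM2 to MCM7 with CDC45 and the GINS complex. All 6 ring genes were below DMSO, with a median of -1.10, and 3 were lower. MCM2 read 3288 with DMSO, 1005 with T-3764518 and 1733 in the knockout, and MCM4 read 1068, 351.2 and 699. The 4 probe sets of MCM4 lay between -1.89 and -1.31. MCM5 read 1201, 497 and 899, while MCM3, MCM6 and MCM7 lay at -0.92, -0.92 and -0.79. GINS2 read 1668, 442 and 1160, GINS4 read 173, 71.3 and 160, and CDC45 read 511, 213 and 418. MCM10, which joins helicase and polymerase, was at -1.23.

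The rest of the fork held fewer calls. The 8 genes of polymerases and primase had a median of -0.72 and 0 calls, and the 6 genes of the sliding clamp and its loader -0.64 and 1 call, RFC2, which read 1440 with DMSO, 608 with T-3764518 and 845 in the knockout. PCNA, the clamp, read 9092, 6097 and 10339, so it was below DMSO with the compound and above it in SCD1-KO cells. The 5 genes of nucleotide supply were all below DMSO, with a median of -0.81 and only TK1, thymidine kinase, called, at 3575, 1620 and 2533. The 3 histone chaperones had a median of -1.11, beside -1.10 for the helicase ring, and ASF1B and CHAF1B were lower, at -1.13 and -1.11. UHRF1, which keeps DNA methylation through replication, was also lower and read 5290, 2343 and 4085. The genes above DMSO were CDC6, which loads the helicase, DBF4, POLA2 and ORC2, at 0.37, 0.33, 0.07 and 0.04.

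**Figure D4:**
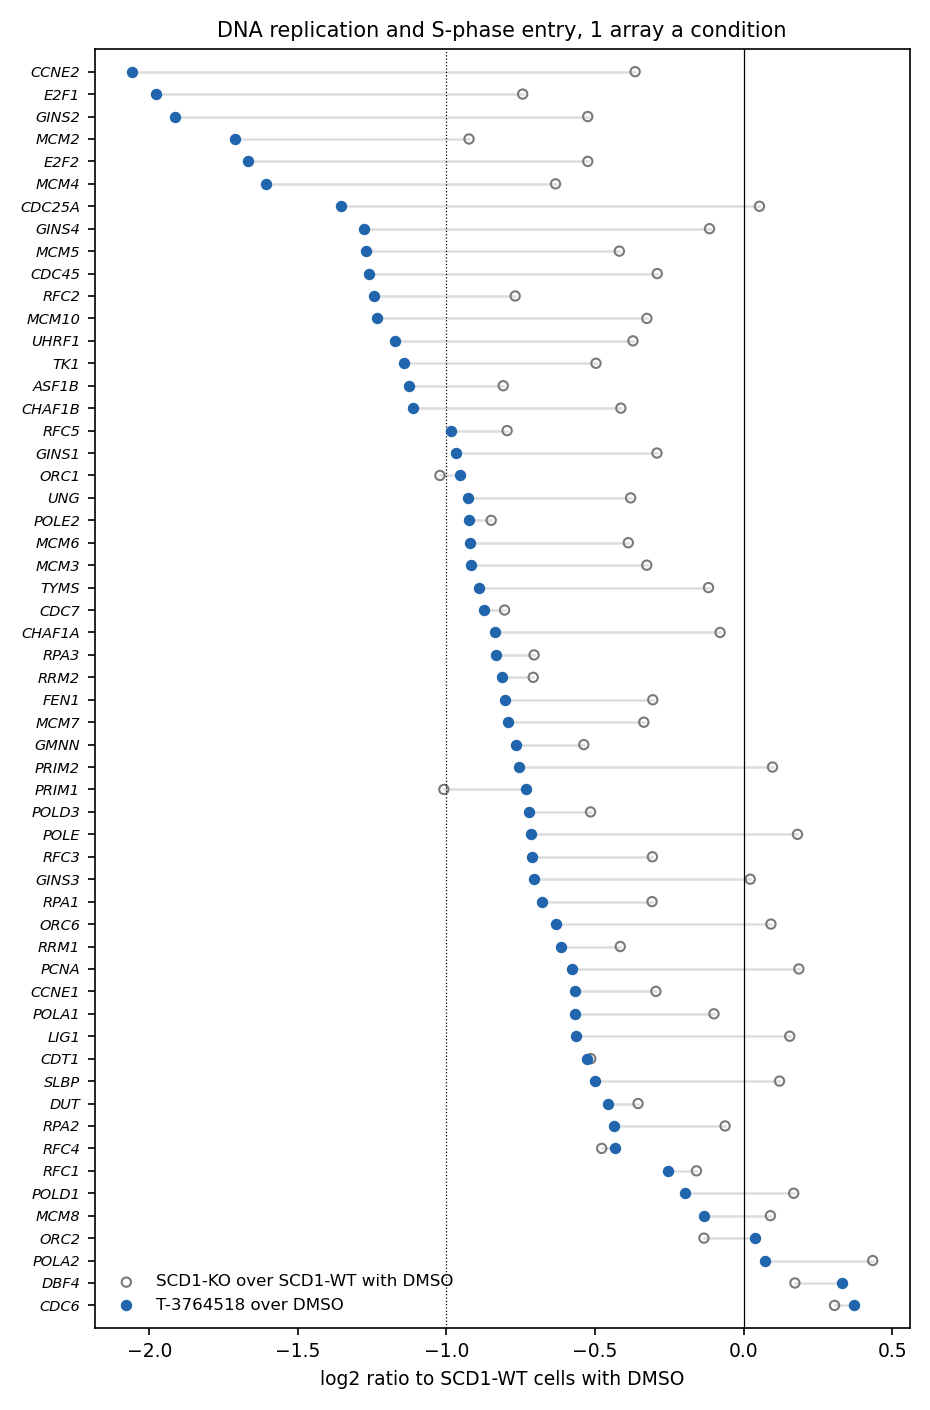
Log2 ratio to SCD1-WT cells with DMSO (horizontal axis) for the 56 compared genes of DNA replication and S-phase entry, filled circles for T-3764518 and open circles for SCD1-KO, with a dotted line at 2-fold lower. The T-3764518 values run from -2.06 for CCNE2 to 0.37 for CDC6, and 50 of the 56 lie to the left of the SCD1-KO value.

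Genes of G2 and mitosis did not stand as far from DMSO. Of 58 compared 0 were called in either ratio, and the medians were -0.29 with T-3764518 and -0.25 for the knockout. Farthest below DMSO were SPC25, a kinetochore protein, at -0.90, and KIFC1, a mitotic kinesin, at -0.88. CCNB1, the mitotic cyclin, read 2710 with DMSO and 2419 with T-3764518, and AURKA, a mitotic kinase, 883 and 853. After scaling to 1 median this list's median was -0.012, which is 0.20 under that of all genes.

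The E2F letters TTTNGCGC were in 296 of all 10030 promoters (2.95%), in 17 of the 288 of lower genes (5.90%) and in 2 of the 215 of higher genes (0.93%). In the replication list 18 of 49 promoters held them, and in the list of G2 and mitosis 2 of 50. Within the replication list the match did not separate the genes by ratio: the 18 with a match had a median of -0.86 and 4 lower genes, and the 31 without had -0.77 and 8. CDC6 and POLA2, above DMSO, also hold it. The matches in E2F1, E2F2, CDC25A and MCM2 are shown because these genes are lower, and that of CDC6 because it is not, each with 10 bases on either side. Capitals mark the E2F letters on the strand of the gene, and the matches on both strands of E2F2 and of MCM2 overlap, so 1 is printed for each. They lie at chr20:33686388-33686415 (minus strand), chr1:23531258-23531285 (minus), chr3:48188444-48188471 (minus), chr3:127598403-127598430 (plus) and chr17:40287876-40287903 (plus).
E2F1: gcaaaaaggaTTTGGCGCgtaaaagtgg
E2F2: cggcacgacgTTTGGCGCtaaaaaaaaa
CDC25A: gtggattccgTTTGGCGCcaactaggaa
MCM2: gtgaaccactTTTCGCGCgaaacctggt
CDC6: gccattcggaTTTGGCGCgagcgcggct

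**Figure D5:**
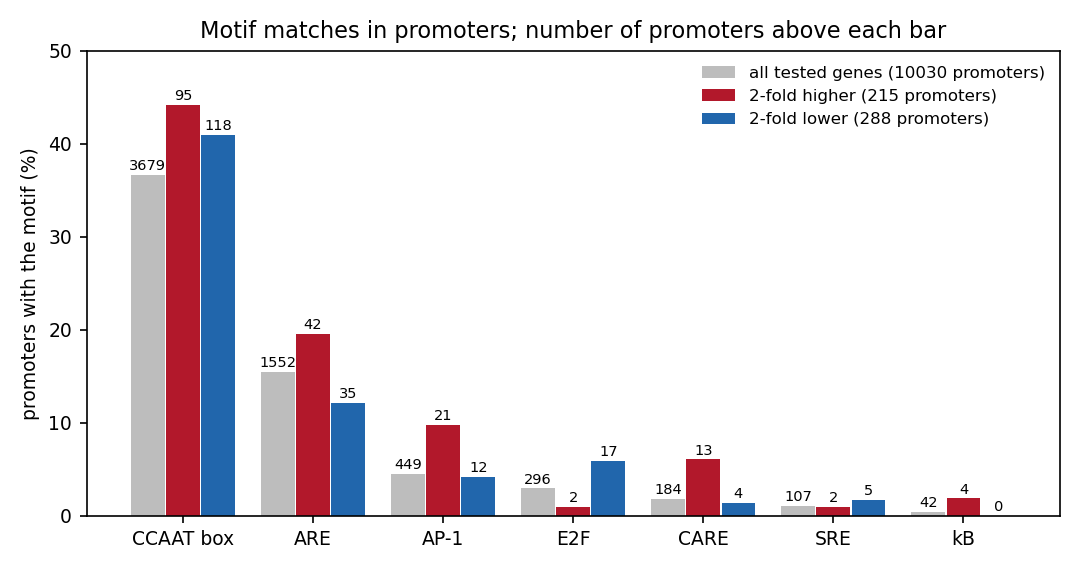
Share of promoters that hold each of 7 motifs (vertical axis, percent) among all compared genes (grey), genes called higher (red) and genes called lower (blue), with the number of promoters above each bar. CARE matches were in 13 of 215 promoters of higher genes and E2F matches in 17 of 288 of lower genes, against 1.83% and 2.95% of all.

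Of 17 Wnt targets and feedback genes 1 was higher (5.88%) and 3 were lower (17.6%) with T-3764518, beside 2.18% and 3.3% of all genes. Scaling to 1 median left 1 lower gene in place of 3. AXIN2, the feedback scaffold of the pathway, read 217 with DMSO, 91.8 with T-3764518 and 181 in the knockout, and its brightest probe set went from 973 to 256. NOTUM, a secreted Wnt inhibitor, read 176, 78.2 and 137. TNFRSF19, 1 of the 3 counted as lower, was called at signals under 56.6 on both arrays, 55.3 and 19.7, so no fold is given. It passed the filter through its SCD1-KO signal of 343, and with low signals raised its log2 ratio with T-3764518 was 0. EPHB3, a receptor of ephrin-B ligands, was 2.77-fold higher. BMP4, a ligand of the BMP pathway, read 2001, 681 and 2786, 2.94-fold lower with the compound and above DMSO in SCD1-KO cells. Its targets ID1 and ID3 lay at -0.39 and -0.81. Of 16 compared genes of ID proteins and BMP signalling BMP4 alone was called, as lower, which is 6.25% beside 3.3% of all genes. The median of this list was -0.10, beside -0.087 for all genes.

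Of 25 interferon-stimulated genes 1 was higher (4%) and 2 were lower (8%) with T-3764518, beside 2.18% and 3.3% of all genes, and the median was -0.26. In SCD1-KO cells 8 were higher, where 3.12% of all genes were, 0 were lower and the median was 0.74. IFIT1, which binds viral RNA, read 482 with DMSO, 185 with T-3764518 and 853 in the knockout, and USP18, which removes ISG15, 226, 93.7 and 319. The 2 conditions lay on opposite sides of DMSO for both genes, and this difference was not tested. ISG20, an exonuclease, was higher with T-3764518, at 296, 1106 and 819. Of 34 HIF targets and genes of glycolysis ADM and ENO2 were lower, which is 5.88% beside 3.3% of all genes. ADM, the vasoactive peptide adrenomedullin, went from 17152 to 8391 and ENO2, an enolase, from 3138 to 1541. In SCD1-KO cells 14 of the 34 were lower, where 3.93% of all genes were, and the medians were -0.27 and -0.74. Of 26 p53 targets GADD45A alone was higher with T-3764518 (3.85%, beside 2.18% of all genes), from 6895 to 14648. CDKN1A, the inhibitor p21, read 4163 with DMSO, 7660 with T-3764518 and 9532 in the knockout. There, 5 of the 26 were higher, beside 3.12% of all genes. The medians of the Wnt, interferon and HIF lists with T-3764518 were above 0 after scaling to 1 median, at 0.012, 0.023 and 0.0049, and remained under that of all genes.

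Lists of basic cell machinery held 0 or 1 call. The 51 cytosolic ribosome genes had a median of -0.013 and 0 calls, the 39 proteasome genes 0.036 and 0 calls, and the 68 genes of oxidative phosphorylation -0.24 and 1 call. Of the 68, 63 lay below 0, and the list's median was 0.15 under that of all genes. After scaling to 1 median it was 0.041 and still 0.15 under that of all genes. That gene was NDUFB7, a subunit of complex I, at 2534 with DMSO and 1168 with T-3764518. The 11 control genes had a median of -0.077 and 0 calls. Of 20 cytosolic and mitochondrial heat shock proteins and their partners HSPA13 alone was called, from 1563 to 3299, and HSPD1, the mitochondrial chaperonin, read 5559 and 5795. Of 17 genes of integrins and the basement membrane LAMB3, a laminin chain, alone was called, as higher (5.88%, beside 2.18% of all genes). It read 762, 2024 and 1209, and the median of its list was -0.0070. Of 8 keratins KRT15 and KRT7 were higher with T-3764518 (25%), at 2.22-fold and 2.19-fold, and the median was 0.24. The probe sets of KRT7 lay at 0.29 and 1.97 on the log2 scale. In all, 83 of the 269 higher genes and 37 of the 407 lower genes belong to a list, and the other 186 and 370 belong to none.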

How the data were processed

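The series comprised 3 arrays, 1 each of SCD1-WT cells with DMSO, SCD1-WT cells with T-3764518 and SCD1-KO cells, grouped by the labels; dose, time and the vehicle of the SCD1-KO cells came from the methods. The authors deposited a linear signal intensity for each of 54675 probe sets, made with MAS5 according to the submitters' processing notes. No version of it is given in the sources used here. MAS5 scales whole arrays, and after removal of 2% of probe sets at each end the mean was 500.1 on all 3. It subtracts background, so ratios of dim probe sets are less reliable. The precision is limited by the number of arrays.

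All later steps ran in Python 3.11.15, on tables in pandas 2.3.3 and arrays in numpy 2.4.6, with lowess from statsmodels 0.14.6 and plots from matplotlib 3.10.9. The platform annotation gave 41097 probe sets 1 gene, 1801 several and 11777 none here, and 41043 matched RefSeq (GRCh38.p14) by gene ID. Probe sets with 1 gene, outside the 62 controls, were kept where the log2 signal, averaged over the 3 arrays, reached percentile 50. The 52 gene lists, of which 47 are of pathways, and the rules were chosen with earlier results of these data known. Named were SCD, the 15 largest ratios in each direction with low signals raised to 56.6 and all probe sets on the same side of 0, the 10 largest among genes with 2 or more probe sets, and from each list up to 4 called genes a direction, or the 2 farthest from 0. Not every gene named by this rule is described above. Other members were named after their values were seen. Some genes without a probe set of a single gene were not analysed here. The alternatives were 3 scalings, 2 other filters, 2 treatments of low signals, 2 other gene values, 3 other call rules and the omission of probe sets ending in _s_at or _x_at.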

Additional observations from a re-analysis of the deposited data

How the results depend on the processing

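Without replicates, settings show how far values rest on processing and not on chance. No paired analysis was possible because each condition had 1 array. The count of genes higher with T-3764518, 269, became 551 with arrays scaled to 1 median, 1680 without the signal filter, 150 with the filter at percentile 75, 816 at 1.5-fold and 84 at 3-fold. The count of genes lower with T-3764518, 407, became 262 after quantile normalization, 163 with 1 median, 250 after lowess correction, 2870 without the filter, 69 at percentile 75, 270 with an offset of 16.5 added to signals, 1516 at 1.5-fold and 70 at 3-fold. Scaling to 1 median moved the list medians with all genes: 0.43 for desaturation and elongation, 1.47 for cholesterol synthesis, 0.19 for triglycerides, 1.31 for ATF4 and CHOP regulators, 0.64 for NRF2 targets, 0.65 for chemokines, -0.53 for DNA replication and -0.012 for G2 and mitosis. At percentile 75 desaturation and elongation gave 0.32 and chemokines 1.49. The brightest probe set gave 1.35 for cholesterol synthesis, 0.081 for triglycerides and 0.80 for chemokines. Without probe sets ending in _s_at or _x_at the medians were 0.90 for cholesterol synthesis, 1.28 for the ATF4 list and 0.59 for NRF2 targets, and without the filter the ATF4 list gave 0.84. Chemokines gave 0.64 after quantile normalization and 0.61 after lowess. The cause of these shifts was not tested. For 140 named genes, 1198 of 1309 alternative values moved by less than the spread between probe sets, 110 moved by more and 1 changed sign, the log2 ratio of ALDH1L1, which was -0.0039 without the filter. Scaling to 1 median took 10 of the 113 called named genes under 2-fold and dropping the filter took 12.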
